A study of Homo sapiens with 8 samples.

Results

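A group of 10 serum-response immediate early genes was followed in A-498, a long established line of human kidney carcinoma cells, over 8 RNA-seq libraries. They were taken by name from a table of 28395 genes: EGR1, EGR2 and EGR3, FOS, FOSB and FOSL1, JUN and JUNB, and IER2 and IER3. All 10 genes were found. Of these, 9 passed the filter on low values (a normalised count of at least 10 in at least 2 libraries), as did 14040 genes in all, and EGR3 did not. The group was chosen by the normalised counts of EGR1, which were lower in replicate 2 than in replicate 1, so differences between replicate numbers are described here and not tested.

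The study compared A-498 cells labelled as ANXA4 knockout (KO) with wild type controls. ANXA4 encodes annexin A4, a calcium-dependent membrane-binding protein. A non-targeting sgRNA (a CRISPR guide without a target) was used for the controls, with a different one in control line 1 and in control line 2. The lines labelled KO guide 1 and KO guide 2 carried different sgRNAs against ANXA4, with 2 replicates a line. Each guide was thus represented by 1 line, and guide and line cannot be told apart. All lines were seeded at equal cell numbers and grown for a day in serum-containing medium without reaching confluence, and the labels name no serum starvation or stimulation.

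Immediate early genes are transcribed within minutes of a signal, without new protein synthesis. In the best known route, growth factors act through the ERK kinase cascade on ELK proteins bound beside SRF, the serum response factor, at the CArG boxes of the promoters. The transcripts are short-lived, their products switch on a later wave of genes, and feedback regulators such as dual-specificity phosphatases and sprouty proteins damp the signal. In kidney tubule cells several of them, EGR1 and FOS among them, are known to be induced by injury.

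Promoter sequences are shown first for EGR1, JUNB and IER2, which were lower in replicate 2 of every line, and for EGR2, the other gene with a CArG box in a window, so that they can be compared by these boxes. The windows span the 250 bases before the gene start and come from RefSeq (GRCh38.p14), 5′ to 3′ on the strand of the gene. Capitals mark a CArG box, searched as CC, 6 bases each A or T, and GG on both strands. EGR1 (chr5:138465229-138465478, + strand) held 2 boxes, which began 105 and 83 bases before the start:
EGR1: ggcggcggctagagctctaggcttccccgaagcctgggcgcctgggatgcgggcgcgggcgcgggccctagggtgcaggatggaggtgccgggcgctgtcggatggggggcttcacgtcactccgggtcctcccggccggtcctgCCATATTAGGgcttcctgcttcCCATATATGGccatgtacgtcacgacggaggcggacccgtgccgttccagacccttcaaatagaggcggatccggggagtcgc
EGR2 has 3 starts in the table, and 1 box was found, 71 bases before the third of them. It is shown with its flanks (chr10:62816418-62816447, - strand):
EGR2: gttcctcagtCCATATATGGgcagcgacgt
JUNB (chr19:12791236-12791485, + strand) and IER2 (chr19:13150161-13150410, + strand) had none of these letters in their windows:
JUNB: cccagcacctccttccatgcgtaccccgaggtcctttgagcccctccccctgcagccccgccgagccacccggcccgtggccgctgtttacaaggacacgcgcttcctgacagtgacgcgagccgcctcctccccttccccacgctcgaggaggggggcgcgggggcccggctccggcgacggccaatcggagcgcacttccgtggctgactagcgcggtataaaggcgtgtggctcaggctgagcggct
IER2: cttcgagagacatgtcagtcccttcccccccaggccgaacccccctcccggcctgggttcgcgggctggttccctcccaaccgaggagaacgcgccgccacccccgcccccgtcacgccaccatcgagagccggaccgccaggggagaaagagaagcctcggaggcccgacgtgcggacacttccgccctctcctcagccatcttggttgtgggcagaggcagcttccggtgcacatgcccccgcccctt

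Of the 10 genes, 7 had a promoter in the table, with 9 windows in all, and 2 windows held a CArG box. Among 35116 windows of the same length over all genes, 1.16% held one. The letters TGACGTCA (a CREB and ATF motif, in 1.65% of all windows), TGAGTCA (the AP-1 motif, 4.2%) and GCGGGGGCG (the EGR motif, 4.72%) were searched on both strands and were in none of the 9 windows. A match describes letters and is not a measured binding site. EGR3, FOSL1 and IER3 were not in the table.

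The libraries held between 15784890 and 22631588 reads, and Pearson's r across genes, on the log2 scale, was 0.978 to 0.987 between replicates of a line. ANXA4 was at 2821, 3614, 3858 and 6773 in the control libraries, at 236 and 234 in the line labelled KO guide 1 and at 3433 and 4142 in the line labelled KO guide 2. In the latter line the transcript was thus not lower than in the controls, and directions of KO against control refer to the labels. Of 12 markers of renal carcinoma cells, 8 were at 50 or more in every library, among them PAX8, PAX2 and KRT18, while LRP2, a marker of mature proximal tubule, had at most 3 reads and CA9 stood at 2.07 to 24.8. The summed level of the 12 was 89973 to 119326 in control and 81845 to 128066 in KO-labelled libraries. At most 3 reads per library were found for the fibroblast markers COL1A2, COL3A1, DCN and LUM, the endothelial markers CDH5, VWF and KDR, and the leukocyte markers PTPRC, CD3E, LYZ and TYROBP. COL1A1, CD68 and the endothelial marker TEK were detected throughout, at 177 to 1408, 1784 to 4409 and 21.7 to 67.6. The fibroblast marker PDGFRB reached 19.8, and the endothelial marker CLDN5 and the leukocyte marker CD14 reached 13.3. The labels did not state whether replicates were separate cultures, so p-values measure only the spread between these libraries, which may be technical.

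Of the genes, 4 were abundant and the other 6 were low. Per kilobase of exon, the median normalised count over the 8 libraries was 1787 for FOSL1, 1238 for JUNB, 1009 for JUN and 513 for IER2. The ranges of FOSL1 (1333 to 2101), JUNB (818 to 1628) and JUN (933 to 1184) overlapped between neighbours in that order, and IER2 (428 to 635) lay below all 3. EGR1 followed with a median of 41.9 per kilobase, and its range from 12.9 to 157 was the widest in fold of the 10. IER3 (median 12.7), FOS (10.3), FOSB (6.90) and EGR2 (4.19) came next with ranges that overlapped between neighbours, and EGR3 (0.607) was last with 1 to 6 reads a library.

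**Figure D1:**
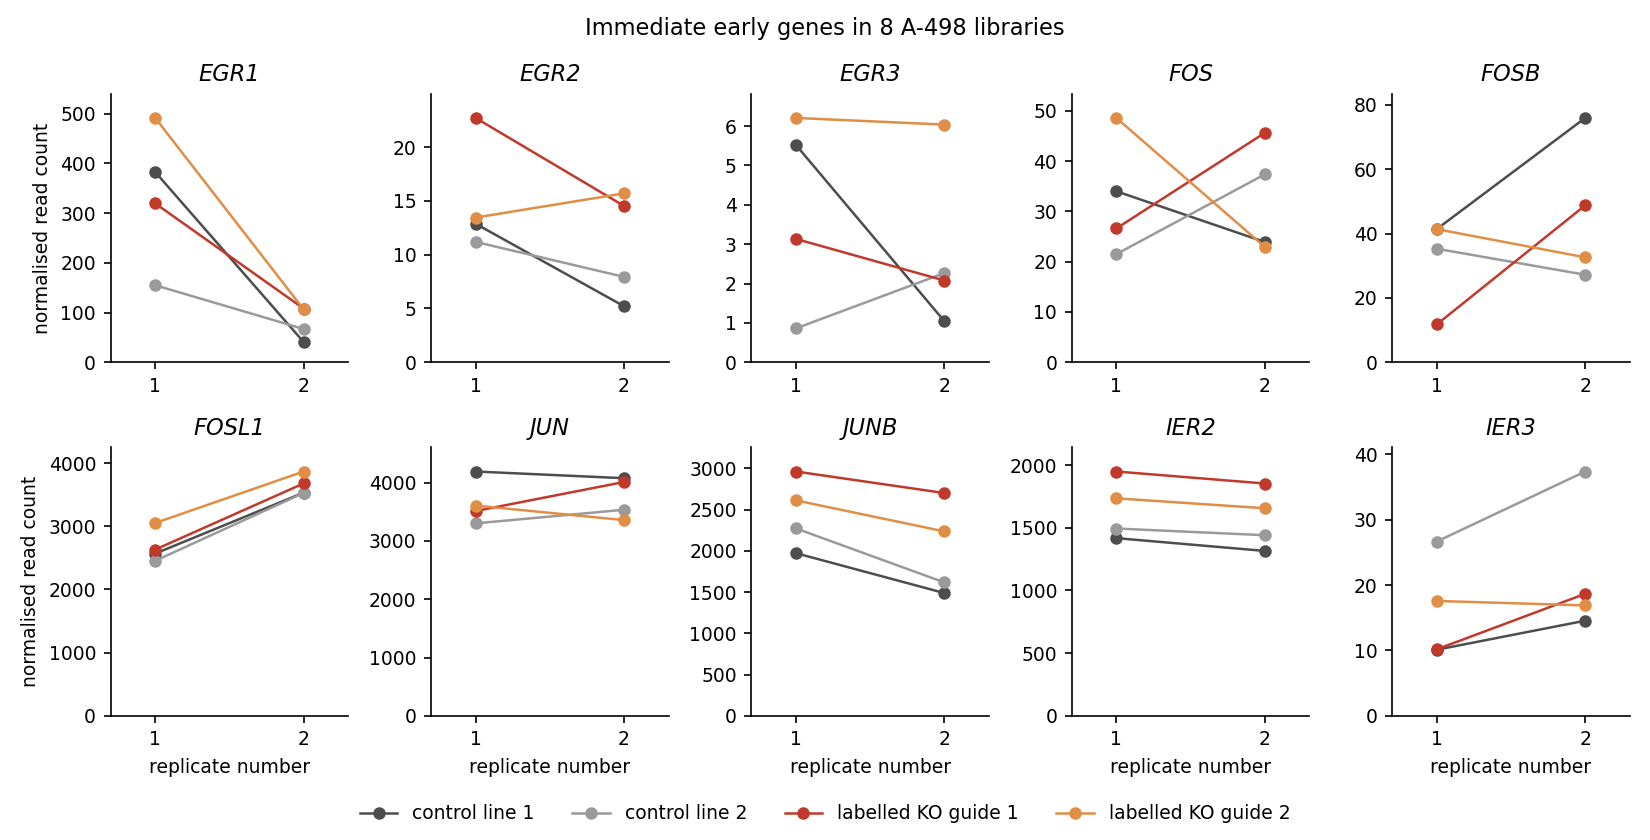
Normalised read count (vertical axis, linear, a scale for each gene) of the 10 immediate early genes against replicate number (horizontal axis), with 1 point per library and a line joining the replicates of a cell line. EGR1 lay at 155 to 491 in replicate 1 and at 40.6 to 108 in replicate 2, whereas FOSL1 was higher in replicate 2 of each line and JUN showed no common direction.

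The first comparison was between replicate numbers within a line, over 4 pairs of libraries. Lower in replicate 2 of all 4 lines were 3 of the 10 genes, EGR1, JUNB and IER2, and 1, FOSL1, was higher in all 4. Over all 14040 tested genes, 19.3% were lower in all 4 lines and 20.2% higher, so a common direction by replicate number was frequent. EGR1 set the contrast by its choice, and nothing is read from these counts. The median over the 9 tested genes of the mean difference was -0.0040 on the log2 scale, against 0.0015 over all genes, with genes on both sides of 0.

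EGR1, a zinc finger transcription factor (Entrez gene 1958, chr5:138465479-138469303), had normalised counts of 382 and 40.6 (replicates 1 and 2 of control line 1) and of 155 and 66.8 (replicates 1 and 2 of control line 2). The line labelled KO guide 1 had 319 and 108, and the line labelled KO guide 2 had 491 and 106. Every replicate 1 library lay above every replicate 2 library, in control and KO-labelled lines alike (180 to 475 against 39 to 104 recovered reads). Replicate 1 was 9.43-fold, 2.32-fold, 2.96-fold and 4.62-fold higher in the same order of lines, and the mean log2 difference was -2.04 (SD 0.88, n = 4 lines). By that mean EGR1 was the third lowest of the 14040 genes, but it was chosen by this difference, so the rank is a description only. In bulk RNA, fewer cells that express a gene and less RNA per cell cannot be told apart.

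EGR2 and EGR3, zinc finger factors of the same family, were much scarcer per kilobase. EGR2 (Entrez gene 1959, chr10:62811996-62819167) was at 12.9 and 5.20 in control line 1, 11.2 and 7.93 in control line 2, 22.7 and 14.5 in the line labelled KO guide 1 and 13.4 and 15.7 in the line labelled KO guide 2. It was lower in replicate 2 in 3 lines and higher in the line labelled KO guide 2, by a mean of -0.50 (log2, SD 0.56, n = 4). EGR3 (Entrez gene 1960, chr8:22687659-22693480) ranged from 0.860 to 6.21, at 1 to 6 reads, which does not allow a direction to be read.

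JUNB (Entrez gene 3726, chr19:12791486-12793315), a subunit of the AP-1 transcription factor, was at 1972 and 1488 in control line 1, 2272 and 1617 in control line 2, 2962 and 2701 in the line labelled KO guide 1 and 2612 and 2236 in the line labelled KO guide 2. Its differences between replicates were -0.41, -0.49, -0.13 and -0.22 (log2), with a mean of -0.31 (SD 0.16, n = 4 lines), so replicate 2 was lower in each line, and by less than for EGR1. IER2 (Entrez gene 9592, chr19:13150411-13154911), a nuclear protein of the immediate early response, was at 1418 and 1316, 1494 and 1441, 1949 and 1854, and 1735 and 1656 in the same order. Its mean difference was -0.075 (SD 0.023, n = 4 lines), small but of the same sign in each line.

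FOSL1 (Entrez gene 8061, chr11:65892049-65900545), the FOS-like AP-1 subunit FRA-1 whose gene is itself an AP-1 target, went the other way. It was at 2567 and 3531 in control line 1, 2453 and 3527 in control line 2, 2630 and 3677 in the line labelled KO guide 1 and 3051 and 3865 in the line labelled KO guide 2. All replicate 2 libraries lay above all replicate 1 libraries, by 1.38-fold, 1.44-fold, 1.40-fold and 1.27-fold, a mean log2 difference of 0.45 (SD 0.078, n = 4 lines). The direction of EGR1, JUNB, IER2 and FOSL1 was kept in each line with equal totals and with TMM scaling, under which the share of all genes lower in all 4 lines was 25.8% and 20.6% and the share higher was 13.8% and 18.8%.

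The other AP-1 genes had no common direction. FOS (Entrez gene 2353, chr14:75278828-75282230) was at 34.0 and 23.9, 21.5 and 37.4, 26.6 and 45.6, and 48.6 and 22.9 in the 4 lines, lower in replicate 2 in 2 of them. FOSB (Entrez gene 2354, chr19:45467996-45475179) was at 41.4 and 75.9, 35.3 and 27.2, 11.7 and 48.8, and 41.4 and 32.6, also split evenly. Both are the classical partners of JUN in AP-1, and their libraries overlapped between replicate numbers, with SDs of the difference of 0.92 and 1.11 on the log2 scale against 0.078 for FOSL1. FOS held 19 to 47 reads a library and FOSB 15 to 73, against 2792 to 3545 for FOSL1. JUN (Entrez gene 3725, chr1:58780791-58784047), the core AP-1 subunit, ranged only from 3301 to 4191 and differed by 0.037 (log2, SD 0.13, n = 4 lines). IER3 (Entrez gene 8870, chr6:30743199-30744547), a stress-inducible regulator of survival, was at 10.1 and 14.6, 26.7 and 37.4, 10.2 and 18.7, and 17.6 and 16.9, higher in replicate 2 in 3 lines.

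**Figure D2:**
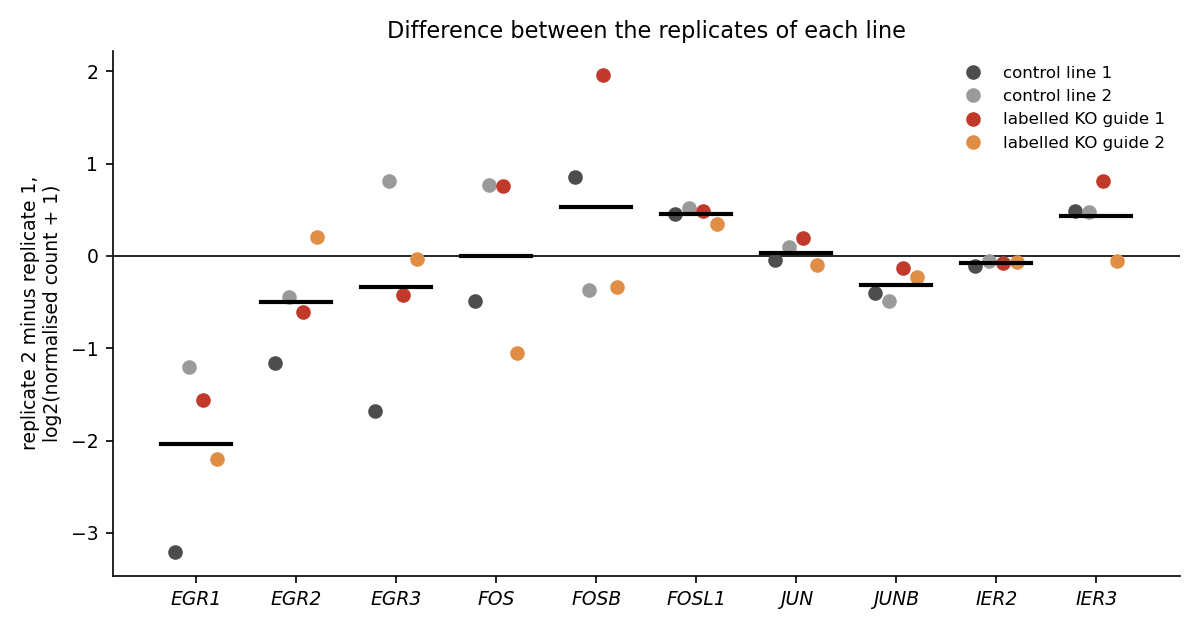
Difference between replicate 2 and replicate 1 within each line (vertical axis, log2 of the normalised count + 1) for the 10 genes, with 1 point per line and a bar at the mean of the 4 lines. The points of EGR1 lie between -3.21 and -1.20, those of FOSL1 between 0.34 and 0.52, and those of FOS and FOSB on both sides of 0.

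Other measures moved with the replicate number. Depth was lower in replicate 2 of each line (16904423 to 22631588 reads in replicate 1 against 15784890 to 17610801 in replicate 2). The share of reads on mitochondrial genes was higher in replicate 2 in 3 lines, from 4.67% to 6.35%, 6.39% to 9.05% and 6.40% to 13.8%, while for the line labelled KO guide 1 it was 6.43% and 6.23%. Of 10 tested heat shock genes, 4 were higher in all 4 lines (HSPB1, HSPE1, HSP90AA1 and DNAJA1) and 0 were lower, beside 20.2% and 19.3% of all genes. Their part in the differences of the immediate early genes was not tested.

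Genes around the pathway were described by the same contrast, from lists of 100 genes of which 92 were tested. Of these, 18 (19.6%) were lower in replicate 2 of all 4 lines and 27 (29.3%) higher, beside 19.3% and 20.2% of all genes. The lists overlap in SRF, which was counted once. Per list, a mean of at least 50 and a common direction were asked of the genes named.

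The regulators of SRF and its partners were mixed, with 7 of 20 tested genes lower and 5 higher in all 4 lines (median -0.11). SRF itself was at 1530 and 1152, 1586 and 1065, 1420 and 1055, and 1660 and 1082 in replicates 1 and 2 of the 4 lines, a mean log2 difference of -0.51 (SD 0.10). All 4 replicate 1 libraries lay above all 4 replicate 2 libraries, as for EGR1. How many of all genes are separated by replicate number in this way, in either direction, was not counted. MRTFA, a coactivator of SRF that responds to actin, was lower by a mean of -0.63 (SD 0.21). The ETS factor ELK3 (0.32, SD 0.30) and NAB1, a corepressor of EGR proteins (0.29, SD 0.057), were higher.

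Among ERK feedback regulators, 2 of 15 tested genes were lower and 4 higher (median 0.0092). DUSP1, an immediate early phosphatase of MAP kinases, was lower by a mean of -0.57 (SD 0.44), as was ETV5 by -0.096 (SD 0.088). SPRY4 (0.94, SD 0.34) and DUSP6 (0.55, SD 0.17), feedback inhibitors that are induced by ERK signalling, were higher in replicate 2 of each line. DUSP1 and DUSP6 thus lay on opposite sides of 0.

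Of 20 other immediate early effectors, 7 were lower and 6 higher (median -0.14). RHOB, a small GTPase, and GADD45B, a stress-inducible gene, were lower by -0.56 (SD 0.27) and -0.52 (SD 0.30), and GEM (0.51, SD 0.41) and PHLDA1 (0.45, SD 0.19) were higher. Of 18 tested other immediate early transcription factors, 1 was lower, MYC by -0.30 (SD 0.16), and 4 were higher (median 0.20), with ID2 (0.67, SD 0.35) and HES1 (0.58, SD 0.25) the largest.

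Partners and targets of AP-1 had 2 of 10 tested genes lower and 4 higher (median 0.21). PLAUR, the urokinase receptor and a known AP-1 target, was at 1475 and 3331, 1022 and 2042, 1015 and 2200, and 894 and 2003, a mean log2 difference of 1.11 (SD 0.081). CD44, the hyaluronan receptor, was higher by 0.65 (SD 0.11). As with FOSL1, the spread between lines was small beside the difference. JDP2 (-0.44, SD 0.21) and ATF2 (-0.10, SD 0.020), bZIP partners, were lower. In the heat shock list, HSPE1 (0.57, SD 0.36) and HSP90AA1 (0.35, SD 0.21) were the largest.

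**Figure D3:**
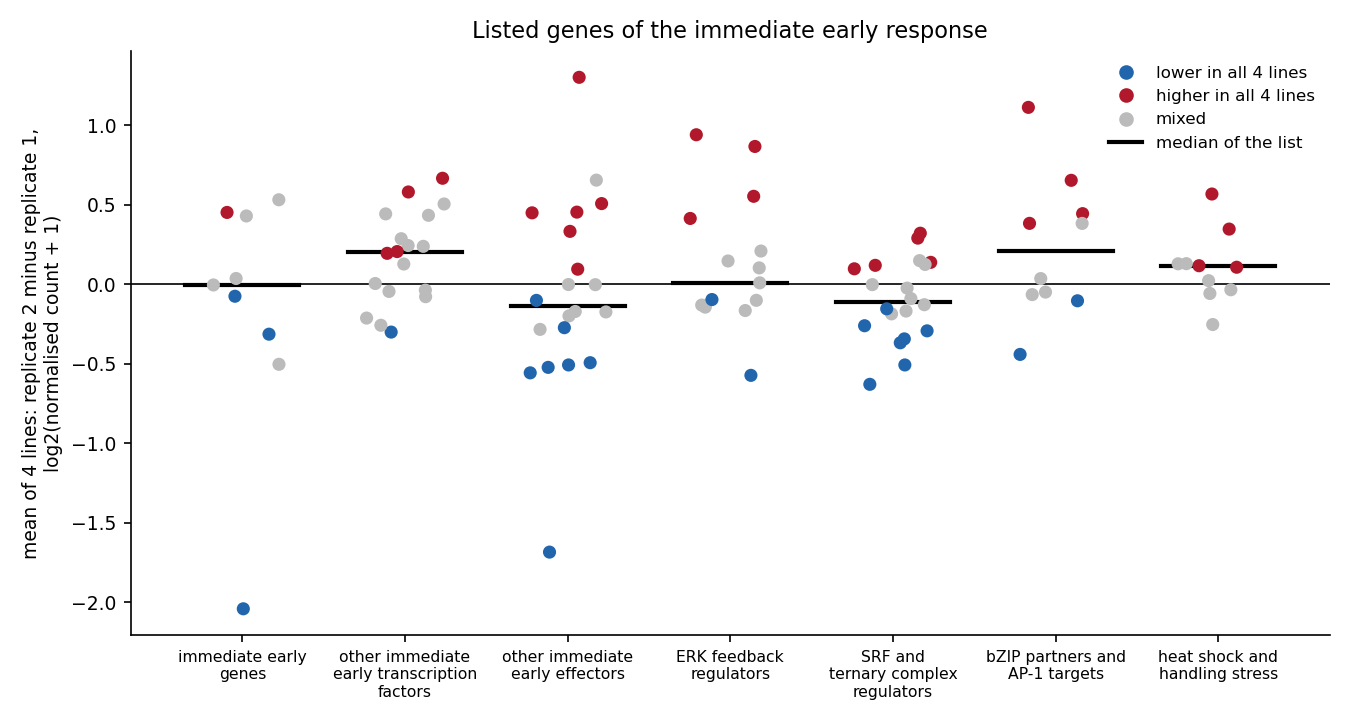
Mean over the 4 lines of the difference between replicate 2 and replicate 1 (vertical axis, log2 of the normalised count + 1) for each tested gene of the immediate early group and of 6 lists, coloured by whether the gene was lower or higher in all 4 lines, with a bar at each list's median. Each list holds genes on both sides of 0, and EGR1 (-2.04) is the lowest point.

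The genes whose pattern over the 8 libraries was most like EGR1 were MAP2K5 (Pearson's r = 0.962 of log2 values), POT1 (0.957), CAT (0.955), ARNT2 (0.948) and ANXA9 (0.945), out of 11232 genes with a mean of at least 50. The 8 points share lines, replicate numbers and depth, and the coefficient is a description. CAT, the hydrogen peroxide-degrading enzyme catalase, was at 1523 and 869, 1329 and 869, 1607 and 969, and 1914 and 1201, with every replicate 1 library above every replicate 2 library. It was picked by its likeness to EGR1, so this separation is not independent of that choice. Its mean log2 difference of -0.71 (SD 0.083) was smaller than that of EGR1, as were those of MAP2K5 (-0.38, SD 0.17), POT1 (-0.19, SD 0.087), ARNT2 (-0.60, SD 0.13) and ANXA9 (-0.78, SD 0.21).

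The second comparison, KO-labelled against control lines, used the replicate number only in the fits with a replicate block. None of the 9 tested immediate early genes passed an adjusted p of 0.05 over both KO-labelled lines, a count of 0 in limma, beside 0.235% of all 14040 genes. At an unadjusted p under 0.05 there were 2, JUNB and IER2, both higher in the KO-labelled lines, beside 11.5% of all genes. edgeR called 0 of the 9 (1.32% of all genes) and limma with a replicate block 0 (0.264%). DESeq2 called JUNB and IER2 (6.06%), as did limma with 1 mean per line and no variation between lines (10.5%). In this comparison edgeR and DESeq2 also left out the line, so the libraries of a line counted as independent. The median log2 fold change of the 9 genes was 0.26, against 0.00073 over all genes.

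IER2 averaged 1417 ± 75.0 in the control libraries and 1799 ± 129 in the KO-labelled libraries (SD, n = 4 each), with all 4 KO-labelled libraries above all 4 controls. On the log2 scale it was higher by 0.34 (SE 0.13), with an adjusted p of 0.323 in limma, 0.131 in edgeR and 0.0302 in DESeq2. JUNB averaged 1837 ± 355 and 2628 ± 301 (SD, n = 4 each), and only replicate 2 of the line labelled KO guide 2, at 2236, lay below a control library, replicate 1 of control line 2 at 2272. The difference was 0.53 (log2, SE 0.19), with an adjusted p of 0.324 in limma, 0.130 in edgeR and 0.0416 in DESeq2. EGR2 was also without overlap between arms, at 9.30 ± 3.42 and 16.6 ± 4.18 (SD, n = 4 each), but its highest control held 14 reads and its lowest KO-labelled library 13. The log2 fold change of EGR2 was 0.81 (SE 0.47), with an adjusted p of 0.563 in limma. Among all genes 5.11% had every KO-labelled library above every control. Of the exon bases of IER2 24.6%, and of those of IER3 26.5%, are shared with an antisense gene in the GENCODE annotation, and strand use in counting was not stated, so their reads cannot be told apart from antisense reads.

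EGR1 averaged 161 ± 155 over the controls and 256 ± 186 over the KO-labelled libraries (SD, n = 4 each), and the arms overlapped widely. Its log2 fold change of 0.86 had an SE of 0.95 (limma adjusted p 0.813), and of 0.49 in the fit blocked by replicate number (adjusted p 0.578). The log2 fold change ranged from 0.27 without replicate 2 of control line 1 to 1.53 without its replicate 1. The log2 fold changes of FOS (0.26, SE 0.42), FOSL1 (0.14, SE 0.23), JUN (-0.06, SE 0.14), FOSB (-0.47, SE 0.57) and IER3 (-0.33, SE 0.48) were smaller than or close to their errors. For JUN, the arms stood at 3776 ± 426 and 3622 ± 279 (SD, n = 4 each). Of the marker lists, the summed level of the 8 fibroblast markers, most of it COL1A1, was 558 to 1437 in control and 182 to 521 in KO-labelled libraries without overlap, while 4 of the 8, COL1A2 and COL3A1 among them, had at most 3 reads. Its part in the comparison was not tested.

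In the line labelled KO guide 1, in which ANXA4 fell by 4.10 on the log2 scale, 1 of the 9 genes rose, beside 3.82% of all genes called higher and 7.01% in either direction (7.57% with edgeR and 10.3% with DESeq2). IER2 was 1.34-fold higher than in both control lines (log2 0.42, SE 0.10, limma adjusted p 0.0460, edgeR 0.0443, DESeq2 0.0235). The call was lost without a filter on low values (adjusted p 0.0603) and with equal totals (0.0729). It was also lost when any 1 control library or either library of that line was left out (limma adjusted p 0.0685 without replicate 1 of control line 2, 0.102 and 0.158 without replicates 1 and 2 of control line 1, 0.105 without replicate 2 of control line 2, 0.284 and 0.224 without replicates 1 and 2 of the line itself). JUNB differed by 0.64 (log2, SE 0.17), with an adjusted p of 0.0603 in limma and 0.0154 in DESeq2, and was called by limma without replicate 1 of control line 2 (adjusted p 0.0304). With the replicate number as a block, limma called both JUNB (adjusted p 0.000806) and IER2 (0.00474), beside 24.4% of all genes.

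In the line labelled KO guide 2 none of the 9 passed, a count of 0 in limma, edgeR and DESeq2, while these called 11.2%, 11% and 13.6% of all genes. At an unadjusted p under 0.05 there were 2 of the 9, beside 26.7% of all genes. JUNB differed by 0.42 (log2, SE 0.17, adjusted p 0.165 in limma) and IER2 by 0.26 (SE 0.10, adjusted p 0.152). With the replicate block 3 were called, JUNB (adjusted p 0.00894), IER2 (0.0467) and EGR1 (log2 1.01, SE 0.30, adjusted p 0.0259, against 0.538 without the block), beside 27.4% of all genes. EGR1 was chosen by the replicate difference that the block takes out, so its blocked call is not independent of that choice. In the fit without the block, leaving out replicate 1 of that line gave EGR1 a log2 fold change of -0.088. Within each replicate number, EGR1 in that line lay above both control lines (491 against 382 and 155, and 106 against 40.6 and 66.8). Both lines were set against the same control libraries, so their values are not independent.

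**Figure D4:**
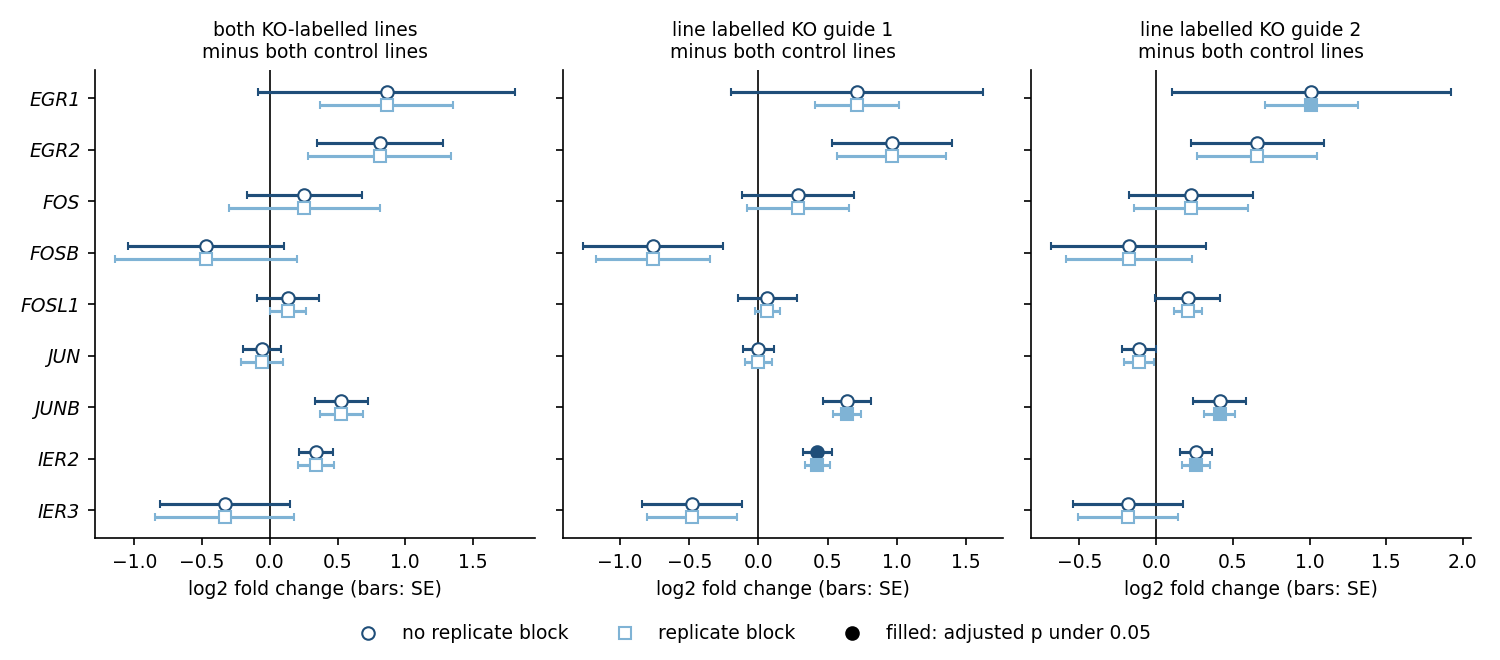
Log2 fold change (horizontal axis, bars show the SE) of the 9 tested genes for both KO-labelled lines, the line labelled KO guide 1 and the line labelled KO guide 2, each against both control lines, from limma without (circles) and with (squares) the replicate number as a block, filled where the adjusted p was under 0.05. JUNB (0.53, 0.64 and 0.42) and IER2 (0.34, 0.42 and 0.26) lie above 0 in all 3 panels, as do EGR1, EGR2, FOS and FOSL1. The fold changes of the first panel are the means of those in the other panels, which share the controls. The bars of EGR1 are shorter with the block, which takes out the replicate difference that EGR1 was chosen by.

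The KO-labelled lines were also compared with each other. Of the 9 genes 0 were called by limma, edgeR or DESeq2 or with the replicate block, beside 6.94%, 6.55%, 10.3% and 24.5% of all genes. At an unadjusted p under 0.05 there were 0, beside 24.2% of all genes. JUNB differed by -0.23 (SE 0.20, limma adjusted p 0.523), IER2 by -0.17 (SE 0.12, adjusted p 0.440) and EGR1 by 0.30 (adjusted p 0.890), as the line labelled KO guide 2 minus the line labelled KO guide 1. A difference between the lines in these genes was therefore not shown, although ANXA4 differed between them.

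The control lines differed in none of the 9 genes by limma, edgeR or DESeq2, while these called 2.13%, 2.04% and 4.67% of all genes. At an unadjusted p under 0.05 there was 1 of the 9, beside 15.5% of all genes. That gene was IER3, at 12.3 ± 3.14 in control line 1 and 32.0 ± 7.58 in control line 2 (SD, n = 2 each), a log2 difference of 1.31 (SE 0.42, limma adjusted p 0.156). It was called with the replicate block (adjusted p 0.0394), beside 12.5% of all genes, from 11 and 14 against 31 and 33 reads. EGR1 differed by -0.30 (adjusted p 0.954) and JUNB by 0.16 (adjusted p 0.824) between the control lines. For IER3 the distance between the controls was thus larger in size than its log2 fold change of -0.33 between KO-labelled and control lines.

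The other listed genes of the pathway were read in the same fits. Over both KO-labelled lines 0 of 92 were called by limma, 2 (2.17%) by edgeR, BTG1 and CCN2, and 7 (7.61%) by DESeq2, beside 0.235%, 1.32% and 6.06% of all genes. The edgeR and DESeq2 fits took the libraries of a line as independent here. At an unadjusted p under 0.05 in limma there were 13 (14.1%), beside 11.5% of all genes. The genes named here were chosen after their values were seen. BTG1, an antiproliferative immediate early gene, was at 785, 834, 947 and 1016 in the control libraries, 1435 and 1611 in the line labelled KO guide 1 and 1349 and 1373 in the line labelled KO guide 2. CCN2, a secreted matricellular protein, was at 922, 992, 943 and 920, then 474 and 366, and 641 and 488. For BTG1 every KO-labelled library lay above every control, as for 5.11% of all genes.

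Against both control lines, 8 of the 92 genes (8.7%) were called in the line labelled KO guide 1, 5 higher and 3 lower, beside 3.82% and 3.18% of all genes. BTG1, KLF4, SPRED1, RPS6KA3 and HMGA1 rose, and CCN1, CCN2 and SGK1 fell. BTG1 rose by 0.77 on the log2 scale (SE 0.11, limma adjusted p 0.00621), CCN2 fell by 1.18 (SE 0.16, adjusted p 0.00435) and SGK1, a serum-inducible kinase, fell by 1.16 (SE 0.18, adjusted p 0.00859). The BTG1 call was lost without replicate 1 (adjusted p 0.0536) or 2 (0.0949) of that line, that of SGK1 likewise (0.0976 and 0.0801), and that of CCN2 without its replicate 2 (0.0693). The others held less well. Of the 8 fits that each left out 1 library, the call was lost in 6 for RPS6KA3, in 5 for KLF4 and SPRED1 and in 3 for HMGA1 and CCN1. The highest adjusted p came without replicate 2 of that line for all 5 (0.309, 0.243, 0.253, 0.170 and 0.0821).

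In the line labelled KO guide 2, 8 of 92 (8.7%) were called, beside 11.2% of all genes. Among them BTG1 and GADD45A rose, and CCN2, ETV4, ETV5, MAPK8 and DNAJA1 fell. Of the tested ERK feedback regulators only ETV4 and ETV5 were called there by limma without the block, and DUSP6 and SPRY4 were not. ERK activity itself was not measured. BTG1 rose by 0.61 (SE 0.11, limma adjusted p 0.0108) and kept its call without any 1 library, and CCN2 fell by 0.75 (SE 0.16, adjusted p 0.0176). The CCN2 call was lost without replicate 1 (adjusted p 0.0519) or 2 (0.0628) of control line 1 or replicate 2 of the line itself (0.0954). ETV4 and ETV5, ETS factors whose transcripts report ERK activity in many cells, fell by 0.99 (SE 0.19, adjusted p 0.0126) and 0.61 (SE 0.12, adjusted p 0.0131), both not called without replicate 2 of that line (0.0654 and 0.0640). The calls of MAPK8 and DNAJA1 were lost in all 8 fits that left out 1 library (adjusted p up to 0.125 and 0.107), and that of GADD45A in 3 (up to 0.0947, without replicate 2 of that line).

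Between the KO-labelled lines 6 of 92 (6.52%) were called, beside 6.94% of all genes. SGK1 was higher, and ETV4, ETV5, SPRED2, HMGA1 and KLF4 were lower in the line labelled KO guide 2. ETV5 stood at 1008, 998, 884 and 799 in the controls, at 1184 and 1160 in the line labelled KO guide 1 and at 644 and 564 in the line labelled KO guide 2. The difference of ETV5 between the KO-labelled lines was -0.96 (SE 0.13, limma adjusted p 0.00752), with the call lost without replicate 1 (0.0627) or 2 (0.0784) of the line labelled KO guide 1, as was that of SGK1 (0.0566 and 0.0616). The calls of ETV4, HMGA1 and KLF4 were lost in 3 of the 8 fits that left out 1 library, and the highest adjusted p (0.2304, 0.189 and 0.173) came on leaving out the guide 1 replicate 2 library. That of SPRED2 (adjusted p 0.0497) was lost in all 8 (0.0575 to 0.283) and held in 5 of 17 alternatives. For the 15 tested ERK feedback regulators the median difference was -0.48, against -0.0054 over all genes, while for the 9 immediate early genes it was -0.059. Between the control lines 2 of 92 (2.17%) were called, among them SPRED3, which was lower in control line 2 and lost its call in 6 of the 8 fits (adjusted p up to 0.300), beside 2.13% of all genes. With the replicate block the called genes of the 92 numbered 32 for the line labelled KO guide 1, 24 for the line labelled KO guide 2, 21 between these lines and 13 between the control lines, beside 24.4%, 27.4%, 24.5% and 12.5% of all genes.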

How the data were processed

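Poly(A) RNA of 8 A-498 libraries was sequenced, 2 from each of 4 lines. The submitters' processing notes name fastp 0.23.2, HISAT2 2.2.1, featureCounts 2.0.1, DESeq2 2.11.40.8 and the builds hg38 and GRCh38. The annotation used for counting and the use of strand are not given in the sources used here. The deposited values are a normalised signal, which the authors made by dividing reads per gene by 1 size factor per library. Dividing each column by its smallest value above 0 gave whole numbers for 100% of these values (tolerance 0.001 reads), so whole reads were recovered. Entrez identifiers were matched to RefSeq symbols for 27745 of 28395 genes. Reads carry no molecular identifiers.

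The fits were made in R 4.3.3 with limma 3.58.1, after taking log2(value + 1), so the fold changes of low genes are understated. A gene entered where 2 or more libraries had a value of 10 or more, which left 14040, with p-values adjusted by Benjamini-Hochberg over all of them and an adjusted p under 0.05 called. KO against control used the line as a correlated block (duplicateCorrelation, correlation 0.33), and single lines were compared through 1 mean per line, with the spread shared over all 8 libraries. The quasi-likelihood test of edgeR 4.0.16 and DESeq2 1.42.0 were run on the recovered reads, with DESeq2 adjusted over 13495 to 14040 genes. For KO against control both used the arm alone, without the line. Simulated data were used to test the limma fits, with the same changes in both KO-labelled lines and no effect of line or replicate number. These data do not show how the fits handle such effects. Other alternatives were pseudocounts of 0.1 and 10, other filters and scalings, line means, a replicate block and leaving out each library.

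Replicate numbers come from the titles. The difference between replicates 2 and 1 correlated across genes at r = 0.285 to 0.501 in all 6 pairs of lines, above the limit of 0.1, so the numbers were taken to pair the libraries and blocked values are given where they change a call. Levels per kilobase used the exon length of GENCODE v29. Named were all 10 genes and ANXA4, the other listed genes called between KO and control by limma (there were 0), per list the 2 largest replicate differences in each direction with a mean of at least 50 and 1 sign in all 4 lines, and the 5 genes most like EGR1. The members and lists were chosen with earlier results of these data known. The values of some listed genes are not reported here.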

Additional observations from a re-analysis of the deposited data

How the results depend on the processing

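The number of the 9 tested immediate early genes called for both KO-labelled lines was 0 in limma. It became 2 (JUNB and IER2) with DESeq2 and with 1 mean per line. The DESeq2 fit took the libraries of a line as independent, and the other left out variation between lines. Line means alone gave 0. For the line labelled KO guide 1 the count of 1 became 0 without a filter on low values and with equal totals, 2 with DESeq2 and 2 with the replicate block, and was 0 to 1 when a library was left out. With the replicate block it was 3 for the line labelled KO guide 2 and 1 between the control lines, and it stayed at 0 in both comparisons when a library was left out. The block changed no other count of these genes. Without the line labelled KO guide 2, 2 of the genes, FOSL1 and IER3, were higher in replicate 2 of the remaining lines. EGR2 was then lower in each of these lines, besides EGR1, JUNB and IER2. Of all genes 24.6% were higher and 23.5% lower in these lines. Signs that turned did so on leaving out 1 library, in values that were not called. For EGR1 the line labelled KO guide 1 gave -0.0884 and -0.0655 (without replicate 2 of control line 1 or replicate 1 of that line, highest 1.51), the line labelled KO guide 2 -0.0876 (without its replicate 1, highest 2.111), the control lines 1.31 and 0.304 (without replicate 1 of control line 1 or replicate 2 of control line 2, lowest -1.90) and the KO-labelled pair -0.480 and -0.801 (without replicate 2 of guide 1 or replicate 1 of guide 2, highest 1.40). JUNB gave -0.0411 and -0.0836 between the control lines (without replicate 2 of control line 1 or replicate 1 of control line 2, highest 0.407), and IER3 -0.109 between the KO-labelled lines (without replicate 1 of guide 1, highest 0.706). The cause was not tested. Equal totals shifted the median replicate difference of all genes by up to -0.123 (the line labelled KO guide 2) and left the direction of the 4 genes with a common sign as it was. EGR3, with 1 to 6 reads, and EGR2, with 5 to 29, are limited by counting. IER3 (11 to 33 reads), FOS (19 to 47) and FOSB (15 to 73) were also low.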
